A study of Caenorhabditis elegans with 2 samples.

Results

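P granules are cytoplasmic bodies of RNA and protein that mark the germ cells of Caenorhabditis elegans. PGL proteins form their scaffold, Vasa-related GLH helicases sit in them, and Argonaute proteins with small RNAs survey transcripts at their edge. Other germline RNA-binding proteins hold back or release maternal mRNAs, which sets the switch between mitosis and meiosis, oocyte maturation and the fate of early blastomeres. Genes of this class are kept silent in somatic cells by MEP-1 and LET-418. LET-418 is the Mi-2 ATPase of NuRD, a complex that both remodels nucleosomes and removes acetyl groups from histones, and LIN-40 belongs to the MTA family of NuRD subunits.

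The data are chromatin immunoprecipitation sequencing (ChIP-seq) peak lists for LIN-40 at 35 such genes, of 19973 nuclear protein-coding genes in all. The 35 were chosen by name, as genes of this class, with no peak value in the rule. The choice was made with earlier results of these data known, and all 35 matched a protein-coding gene of the WBcel235 annotation. The worms were whole hermaphrodite young adults of strain OP485, taken 57.25 hours after synchronization as starved L1 larvae, in 2 biological replicates numbered 3 and 4 that form 1 group. They belonged to 1 transgenic line that stably expresses LIN-40 fused at its C terminus to GFP and FLAG, and an antibody against GFP recovered the sonicated chromatin. Whole adults mix germ cells and somatic cells, so the cells behind a region cannot be told apart, and no control library was analysed here.

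The promoter window of a gene reached from 1000 bp before each of its transcript starts to 200 bp past it, and a gene counted as occupied when the summit of a region fell inside. The signal is the value the authors' peak caller gave each region. Its scale is unknown from the sources used here, so it serves to rank regions within a list, and values set side by side from the pooled and replicate lists are as deposited, with no common scale known. The strictest list holds the 3066 regions that passed an irreproducible discovery rate (IDR) threshold, with signals of 99.97 or more. It is the top of a pooled list of 30000 regions, which runs down to a signal of 8.944. Each replicate has its own list of 30000 regions. Many worm mRNAs receive a spliced leader, so an annotated start can lie downstream of the place where transcription begins.

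LIN-40 had an IDR summit in the window of 4 of the 35 genes: mex-1, cgh-1, ego-1 and nos-3. That is 11.4% (exact 95% interval 3.2 to 26.7, counting error only), against 9.91% of all protein-coding genes, so the share stood near the background. Of the full pooled list, 10 of the 35 genes (28.6%) had a summit, against 30.9% of all protein-coding genes. The other 25 genes, or 71.4%, had no summit in the window in the pooled list or in either replicate's list, against 62.6% of all protein-coding genes.

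The sequence at mex-1 and cgh-1 is shown because these are the strongest summits of the set, and that at oma-2 because it had the highest pooled signal of the genes with no IDR summit. The last is that of spn-4, where replicate 4 alone had a strong region. Each run is 201 bases of the RefSeq WBcel235 sequence (ce11), plus strand, with the summit at its centre. Capitals mark matches on either strand to 5 motifs searched in worm promoters. These are the GA repeat GAGAGA, the element CTGCGTCT, the palindromic E-box CACGTG, the GC-rich CNCCGCCC and the E2F-like TTTNNCGC. In order, the runs are chrII:11967598-11967798, chrIII:7498475-7498675, chrV:8028962-8029162 and chrV:6785215-6785415.
mex-1: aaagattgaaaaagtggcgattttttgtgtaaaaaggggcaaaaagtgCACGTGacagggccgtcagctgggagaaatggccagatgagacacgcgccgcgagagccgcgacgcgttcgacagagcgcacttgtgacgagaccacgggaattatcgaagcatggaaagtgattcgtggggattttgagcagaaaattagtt
cgh-1: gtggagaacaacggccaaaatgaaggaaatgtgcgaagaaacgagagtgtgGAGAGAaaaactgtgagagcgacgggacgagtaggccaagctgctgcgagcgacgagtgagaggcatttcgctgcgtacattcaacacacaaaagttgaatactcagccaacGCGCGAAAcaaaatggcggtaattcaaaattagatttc
oma-2: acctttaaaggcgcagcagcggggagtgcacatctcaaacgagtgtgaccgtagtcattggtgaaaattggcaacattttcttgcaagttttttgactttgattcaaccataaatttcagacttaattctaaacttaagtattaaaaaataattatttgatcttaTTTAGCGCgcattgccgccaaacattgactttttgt
spn-4: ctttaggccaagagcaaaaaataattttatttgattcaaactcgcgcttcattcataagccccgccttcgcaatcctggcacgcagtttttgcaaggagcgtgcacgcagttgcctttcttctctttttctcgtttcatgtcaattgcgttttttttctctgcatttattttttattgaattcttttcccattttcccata

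The mex-1 run held CACGTG once and had a GC content of 50.2%. The cgh-1 run held GAGAGA once and TTTNNCGC once, as its reverse complement, with a GC content of 47.8%. The oma-2 run held TTTNNCGC once and had a GC content of 35.8%. The spn-4 run (38.8% GC) held none of the 5 motifs. The IDR summits of mex-1 and cgh-1 lay above the median GC content of all 3066 IDR summits, 42.8%. Those of nos-3 (39.8%) and ego-1 (34.8% and 29.4%) lay below it, and the median of these 5 summits was 39.8%. The median over all 30000 pooled summits was 36.8%, and the pooled summit of oma-2 lay just below it.

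The scaffold and helicase genes of the P granule all had empty windows, where 30.9% of all protein-coding genes had a pooled summit and 9.91% an IDR one. Groups of 6 and 4 genes are too small to set apart from those shares. None of the 6 scaffold genes (pgl-1, pgl-2, pgl-3, deps-1, meg-1 and meg-2) had a summit in its window, in the pooled list or in either replicate's. None of the 4 helicase genes glh-1, glh-2, glh-3 and glh-4 had one either. The nearest IDR summit to pgl-1, which encodes a core scaffold protein, lay at -45828 bp. That of pgl-3 lay at -24369 bp. That of pgl-2 was closer, at -3132 bp with a signal of 244, inside an intron of fli-1. So the closest strong region to any PGL gene lay within another gene, though no protein-coding start was nearer to it than that of pgl-2.

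Among the helicases, glh-4 had the closest IDR summit, at -2212 bp with a signal of 121, between genes and with no protein-coding start nearer than its own. The nearest to glh-1 (-16269 bp), glh-2 (-19918 bp) and glh-3 (-12392 bp) lay close upstream of dpf-3, within the 5′ UTR of mdt-18 and close upstream of the retinoblastoma-like gene lin-35. The neighbouring X-linked genes meg-1 and meg-2, whose products help to assemble P granules in the embryo, shared a nearest IDR summit (signal 319) at 9085 and 5580 bp. Within meg-2, replicate 3 had a region of signal 24.9 at 278 bp from the start, just outside the window, that neither replicate 4 nor the pooled list held. The nearest IDR summit to deps-1, which is needed for normal P granules, lay at 11864 bp.

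The helicases and PGL proteins are families of close paralogues, as are fbf-1 and fbf-2, mex-5 and mex-6, and oma-1 and oma-2. How the authors treated reads that map to more than 1 place is not given in the sources used here. Whether that treatment bears on the empty windows among these genes was not tested.

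**Figure D1:**
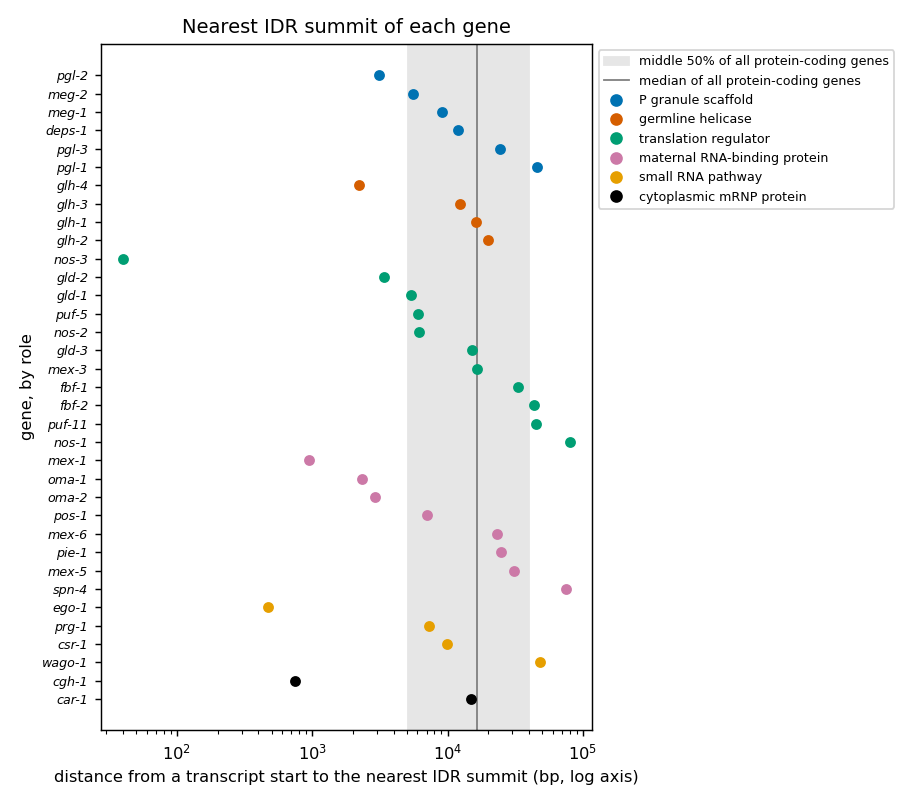
Distance in bp (log axis) from a transcript start of each of the 35 genes, down the page by role, to the nearest IDR summit on the same chromosome; points are genes, the grey band is the middle 50% and the line the median (16479 bp) of all protein-coding genes. Only nos-3, ego-1, cgh-1 and mex-1 lie under 1000 bp, and the rest spread out to 80432 bp at nos-1, with glh-4 (-2212 bp) the nearest of them.

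Over the whole set the median distance to the nearest IDR summit was 11864 bp (quartiles 4406 and 24571), against 16479 bp (5080 and 39982) over all protein-coding genes. More than 10000 bp separated 18 of the 35 genes (51.4%) from any IDR summit, against 62.5% of all genes. No IDR summit lay within the body of any of the 35 genes, against 3.73% of all protein-coding genes with one. By an approximate rule of 3 counts of 35, a count of 0 in 35 allows a share of up to 8.57%. This limit is not the exact interval given for other shares.

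Of the 11 translation regulators, nos-3 had an IDR summit, gld-1 and gld-2 had weaker regions, and 8 had none. nos-3 encodes a Nanos protein that acts with FBF in the switch from sperm to oocytes. Its region was 116 bp wide with the summit at -40 bp and a pooled signal of 119, in rank 2437 of 3066. Replicate 4 had a signal of 79.4 there (rank 1938 of 30000) and replicate 3 had 36.3 (rank 4683). The region was thus among the 3066 strongest in replicate 4 and outside them in replicate 3. The window of Y53C12B.1 also held this summit, at -198 bp from its start. Toward the 3′ end of nos-3 the pooled list had 2 further regions, in the 3′ UTR. The stronger had a signal of 39.1, with its summit 3777 bp past the most upstream start, and replicate 3 had 35.4 (rank 4844) at 3792 bp. The nearest replicate 4 summit, at 3994 bp, lay inside this interval but closer to the weaker pooled summit, at 4006 bp. The weaker had 21, with 8.27 in replicate 3 and 12.9 (rank 18722) in replicate 4.

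gld-2 encodes a cytoplasmic poly(A) polymerase that turns on stored mRNAs. It has 6 annotated starts, and its window summits lay in its own introns, upstream of internal starts. The strongest, chrI:6380822-6381285, had a pooled signal of 43.9 at -321 bp from an internal start (rank 7990, deposited −log10 q 3.16). Replicate 4 had 33.1 there. In replicate 3 the only window summit of gld-2 was another one, with 9.68, at -221 bp from a start. The strongest region within gld-2 lay outside the windows, in an intron, with a pooled signal of 68.9, and with 24.4 in replicate 4 and 41.3 in replicate 3. The replicates therefore ranked the regions of this long gene differently.

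gld-1 encodes a KH-domain protein that represses many mRNAs in the meiotic germline. Its region at chrI:7695275-7695738 had a pooled signal of 32.5 at -174 bp (rank 11200, −log10 q 1.82). Replicate 4 had 21.4 at -189 bp and replicate 3 had 12.2 at -139 bp. Both replicates thus had a weak region at the same place, far below the IDR threshold.

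The other 8 translation regulators had empty windows. For fbf-1 and fbf-2, whose PUF proteins keep germline stem cells in mitosis, the nearest IDR summit, the same one for both, lay at 33026 and 43663 bp. For the Nanos genes nos-1 and nos-2 it lay at 80432 bp and -6117 bp. nos-1 was the farthest of all 35, although a pooled region of signal 94.0, just under the IDR threshold, lay at 2834 bp. For puf-5 and puf-11, further PUF genes, it lay at -6048 and -44825 bp. For gld-3, a Bicaudal-C-type partner of GLD-2, it lay at 15135 bp, and for mex-3, a KH-domain regulator of early embryos, at -16539 bp, close upstream of the ribosomal protein gene rpl-7.

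Among the 8 maternal RNA-binding proteins, mex-1 had the strongest region of all 35 genes. mex-1 encodes a CCCH zinc finger protein needed for germline blastomere identity. Its region, chrII:11967490-11967919, had a pooled signal of 415 (rank 276 of 3066), higher than the strongest peak of 88.3% of the 1979 protein-coding genes with an IDR summit. Replicate 4 had 253 and replicate 3 had 163, with summits at -944 and -940 bp, so the replicates placed it within a few bases of each other. The summit lay near the far edge of the window, at -939 bp from mex-1. It was nearer to the starts of W03C9.5 (-154 bp) and of the small GTPase gene rab-7 (-767 bp), so mex-1 was not the closest gene. A second summit of the same interval had a pooled signal of 81.7 at -735 bp, with 60.9 in replicate 4 and 19.2 in replicate 3. Close to the mex-1 start itself, only replicate 3 had a region, of signal 10.6 at -72 bp.

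oma-2, pie-1 and spn-4 had weaker regions. oma-2 and its paralogue oma-1 act redundantly in oocyte maturation. The oma-2 region, chrV:8028830-8029293, had a pooled signal of 48.2 at -377 bp (rank 7177, −log10 q 3.68). Replicate 4 had 26.2 and replicate 3 had 20.3. No other protein-coding window held this summit, and oma-2 led the genes below the IDR threshold. oma-1 had no summit in its window, and its nearest IDR summit (signal 175), past its 3′ end at 2342 bp, lay at -144 bp from the start of spr-2.

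spn-4 encodes an RRM protein of the early embryo, and its strongest window summits in the replicates lay at different places. In replicate 4 its strongest region, chrV:6785075-6785554, had a signal of 95.2 at -412 bp (rank 1456 of 30000). In replicate 3 the strongest was 10.6 at -582 bp (rank 19763). In the pooled list it was 23.6 at -602 bp (rank 15562). At that shared place replicate 4 had a second region of signal 18.2 at -611 bp (rank 13247). So the replicates both had a weak region there, and the summit at -412 bp was in replicate 4 alone. The gene thus passed in the 3066 strongest regions of replicate 4 and not in those of replicate 3 or the pool. The summits lay nearer to the start of spe-39, at 48 bp in the pooled list, than to that of spn-4. Of the 3066 strongest regions of replicate 4, 65 overlapped no region of replicate 3, and of those of replicate 3, 87 overlapped none of replicate 4. The pooled list also lacked some of them. It had no region for 92 of those of replicate 4 and a weaker one for 22 (3.72% together). For replicate 3 these were 105 and 22 (4.14%). Why the pooled list is weak at spn-4 was not tested.

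pie-1 encodes a CCCH protein that represses transcription in germline blastomeres. Its strongest pooled region had a signal of 21.9 at -919 bp (rank 16613), with 9.68 in replicate 4 at -924 bp. In replicate 3 the only window summit was another one, in an intron, with 7.72. These values lie deep in the lists, and the replicates did not share a place. The windows of mex-5, mex-6 and pos-1, which pattern the zygote and its early divisions, were empty. pos-1 had a pooled region of signal 64.8 in its 3′ UTR, at 1147 bp from its start, with 48.5 in replicate 4 and 26.6 in replicate 3.

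**Figure D2:**
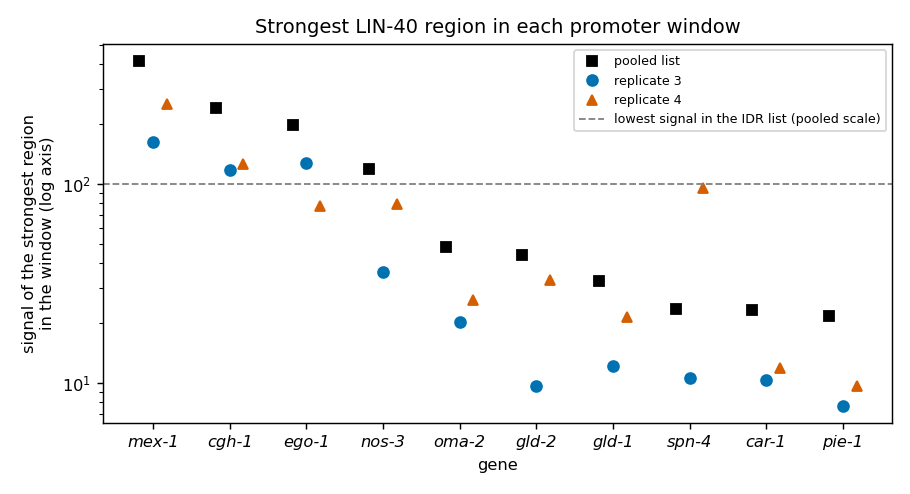
Signal (log axis) of the strongest region in the promoter window of the 10 genes that had one, in order of pooled signal; squares are the pooled list, circles replicate 3, triangles replicate 4, and the dashed line is the lowest IDR signal, 99.97, which applies to the pooled list. Squares of 4 genes lie above the line. Symbols of 1 gene can belong to different summits, as at spn-4, where the triangle (95.2) is a summit the other lists lack.

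Of the 4 small RNA genes, ego-1 had an IDR summit and prg-1, csr-1 and wago-1 had empty windows. ego-1 encodes a germline RNA-dependent RNA polymerase that makes small RNAs. Its interval, chrI:7656451-7657924, held 2 IDR summits, with pooled signals of 197.5 at -475 bp (rank 1144) and 114 at -679 bp (rank 2557). At the first, replicate 4 had 77.5 and replicate 3 had 128. At the second, replicate 4 had 18.5 and replicate 3 had 43.9. ego-1 was thus higher in replicate 3 at both summits. No other protein-coding window held either of them, and the second lay in the 3′ UTR of F26A3.4. The nearest IDR summit to the Piwi gene prg-1 lay at -7327 bp, to the Argonaute gene csr-1 at -9976 bp and to the Argonaute gene wago-1 at 48461 bp.

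Both genes of cytoplasmic mRNP proteins had a pooled summit in the window, as did 30.9% of all protein-coding genes. Only cgh-1 had an IDR summit, as did 9.91% of all. A group of 2 genes is too small to set apart from those shares. cgh-1 encodes a DDX6-type DEAD-box helicase that protects maternal mRNAs. Its region, chrIII:7498407-7498769, had a pooled signal of 240.5 at -743 bp (rank 794). Replicate 4 had 126 at -741 bp and replicate 3 had 118 at -751 bp. This was the best matched of the 4 IDR genes between replicates, and no other protein-coding window held the summit. car-1 encodes an LSm-domain partner of CGH-1. Its pooled region had a signal of 23.4 at -535 bp (rank 15639), with 11.9 in replicate 4 and 10.4 in replicate 3, and the start of coa-5 was closer, at -486 bp.

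**Figure D3:**
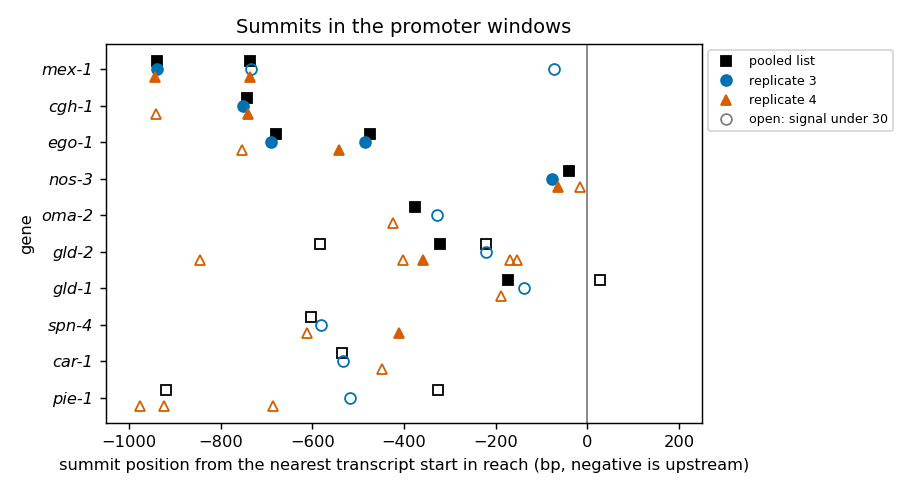
Position of each window summit in bp from the nearest start whose window holds it (x axis; 0 is the start, negative is upstream) for the 10 genes, in order of pooled signal from the top; squares are the pooled list, circles replicate 3, triangles replicate 4, and open symbols have a signal under 30. The strongest pooled summits of mex-1 (-939 bp), cgh-1 (-743 bp) and ego-1 (-475 bp) lie well upstream, and that of nos-3 (-40 bp) lies next to its start.

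The replicates were set side by side against the spread over other genes. Over 1956 protein-coding genes with an IDR summit and a region in both replicates, the log2 ratio of replicate 4 over replicate 3 had a median of 0.22 and an SD of 0.42, with 90% of genes between -0.40 and 0.88. The ratio was 0.10 at cgh-1 and 0.64 at mex-1, both inside that range. It was 1.13 at nos-3, above 98.5% of these genes, and -0.72 at ego-1, above 1.2% of them. With 2 samples in 1 group, no test of these differences was made.

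**Figure D4:**
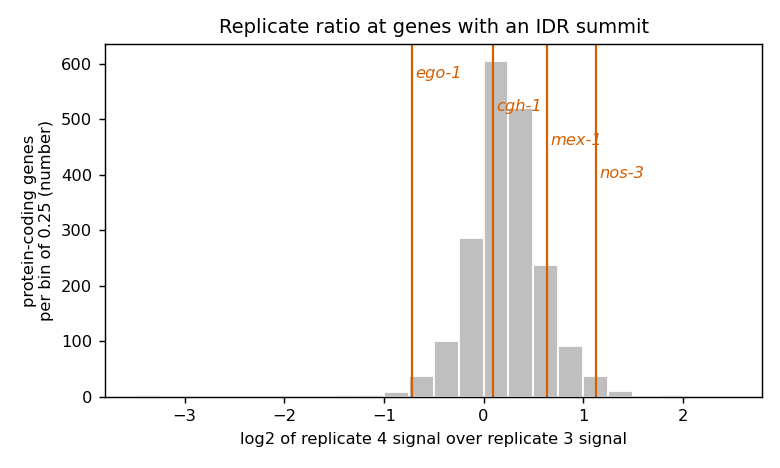
Number of protein-coding genes with an IDR summit (grey bars, bins of 0.25) by the log2 ratio of the strongest window signal in replicate 4 over that in replicate 3; vertical lines mark the 4 genes of the set. cgh-1 (0.10) and mex-1 (0.64) lie in the body of the distribution, ego-1 (-0.72) and nos-3 (1.13) in its tails.

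With each replicate's own 3066 strongest regions in place of the IDR list, 5 of the 35 genes had a summit in replicate 4, against 9.9% of all genes, and 3 in replicate 3, against 9.98%. The 3 genes mex-1, ego-1 and cgh-1 were in both, nos-3 and spn-4 in replicate 4 alone. In the full lists 10 of 35 had a summit in replicate 4, against 32.9% of all genes, and 10 in replicate 3, against 32.6%, and they were the same 10 genes.

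The share of the set was also followed down the pooled list. Among the 500 strongest pooled regions 1 of the 35 genes (2.86%) had a summit, against 2.07% of all genes. Among the 4635 strongest, as many as the IDR list on the older build ce10 holds, it was 4 of 35 (11.4%) against 13.4%. Among the 10000 strongest it was 6 of 35 (17.1%) against 20.7%. Among the 20000 strongest it was 10 of 35 (28.6%) against 27.5%, and among all 30000 it was again 28.6%, against 30.9%. The set thus lay above all genes at some sizes and below at others, with no steady order.

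**Figure D5:**
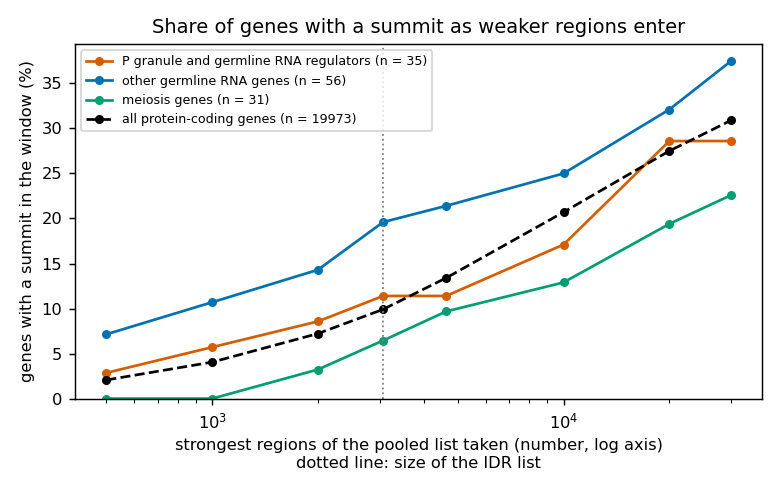
Percent of genes with a summit in the promoter window (y axis) as more of the strongest regions of the pooled list are taken (x axis, log; the dotted line is the size of the IDR list), for the 35 genes, 2 related lists and all protein-coding genes. The 35 genes stand at 11.4% at the IDR size, between other germline RNA genes (19.6%) and meiosis genes (6.45%), beside all genes at 9.91%.

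Other genes of germline RNA control had a summit at 11 of 56 (19.6%, exact 95% interval 10.2 to 32.4), and meiosis genes at 2 of 31 (6.45%, interval 0.791 to 21.4). These intervals overlap that of the 35 genes, and no test of the difference was made. The strongest of the 56 was ifet-1, which encodes a translational repressor of the eIF4E-binding type, with 949, though the start of the ribosomal protein gene rps-1 was nearer. The next was larp-1, for a La-related RNA-binding protein, with 836, nearer to wip-1. The other 9 were mut-15 (336), simr-1 (332), atx-2 (241), ekl-1 (219), vbh-1 (163), rde-12 (142), ccf-1 (125), etr-1 (117) and cey-1 (106). Another start was nearer to the strongest summit at mut-15 (fib-1), simr-1 (C06A5.3), ekl-1 (prpf-4) and vbh-1 (mrpl-17). At ccf-1 the start of trap-4 was equally near. The 2 meiosis genes were xnd-1 (143), where the start of madf-11 was nearer, and rad-51 (131). The rad-51 window held a summit in replicate 4 (81.2) and none in replicate 3. An IDR summit was nearest to the gene's own start at 3 of the 4 genes of the set, 6 of the 11 and 1 of the 2, against 77.3% of all protein-coding genes with one. Any IDR summit in the window counted for this, not only the strongest, and ties counted.

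The 35 genes were spread unevenly over the genome. Chromosome I held 12 of them (34.3%, against 14.4% of all protein-coding genes), II held 9, IV held 5, V held 4, III held 3 and X held 2. Of the 33 autosomal members 25 (75.8%) lay in the centres, the middle 50% of a chromosome, against 55.7% of all autosomal protein-coding genes. The share of all protein-coding genes with an IDR summit ran from 6.69% on V to 14.2% on III, and was 12.3% on I and 8.44% on II. The 4 members with one lay on I (ego-1), II (mex-1 and nos-3) and III (cgh-1).

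Promoter sequence was compared over 250 bases before to 50 after the most upstream start of each gene, on both strands. TTTNNCGC, a looser form of the E2F-like site, was in 17 of the 35 promoters (48.6%), against 18.8% of all 19973. They were those of deps-1, glh-2, glh-3, glh-4, gld-3, puf-11, mex-3, mex-1, mex-5, oma-1, oma-2, pie-1, pos-1, spn-4, csr-1, ego-1 and cgh-1. GAGAGA was in 5 (14.3% against 21.8%), CTGCGTCT in 2 (5.71% against 3.54%), the E-box CACGTG in 2 (5.71% against 5.82%) and CNCCGCCC in 0 (against 4.11%). Motifs were searched separately, so 1 promoter can hold several. Their median GC content was 34%, against 34.3% over all promoters.

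Of the 5 IDR summits in the windows of the 4 genes, 2 held GAGAGA within 100 bp, against 41.3% of all IDR summits, and 1 held TTTNNCGC, against 18%. 1 of the 5 held CACGTG (10.3% of all) and 0 held CTGCGTCT (13.3% of all). These matches are letters in a window and not measured binding sites.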

How the data were processed

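The authors deposited narrowPeak lists for 2 biological replicates of 1 group, per replicate, pooled and IDR-thresholded. Column values are a region's signal and its −log10 q-value, as the authors' caller wrote them. The aligner, the caller and the cutoff of the IDR step: not given in the sources used here. The lists give no read counts, so depth is unknown. Lists on ce10 served only for the number of IDR regions (4635). Summits on ce11 were assigned to transcript starts of Ensembl release 115 (WBcel235), mitochondrial genes left out, and the assignment was tested on simulated data. Of 31805 annotated start codons 99.89% read ATG in the RefSeq WBcel235 sequence. The members and lists were chosen with earlier results of these data known. All 35 genes are named, with genes of the other lists that had an IDR summit. Genes whose start lay nearer are named for the strongest pooled or IDR summit in a window, and for some other summits. In the other lists 2 names had no match. Shares have exact Clopper-Pearson 95% intervals for counting error only, and genes are not replicates. No test was made, and p-values are not given. Sequences are printed for 4 summits, and the others are not reported here. Python 3.11.15, scipy 1.17.1, numpy 2.4.6 and matplotlib 3.10.9 were used. Other windows, assignments, thresholds and single replicates were tried.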

Additional observations from a re-analysis of the deposited data

How the results depend on the processing

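With a window of 500 bp upstream to 100 bp downstream, 2 of the 35 genes (nos-3 and ego-1) had an IDR summit in place of 4. That was 5.71%, against 7.81% of all protein-coding genes with this window. A pooled summit was found at 6 of the 35 in place of 10, or 17.1%, against 25.1% of all protein-coding genes. With the stronger 50% of IDR peaks 1160 of all protein-coding genes had a summit in place of 1979. Leaving out a replicate gave 3 to 5 of the 35 genes, 1978 to 1994 of all protein-coding genes, 10 of 35 in the full lists, and a median strongest signal of 16.23 (without replicate 4) to 55.33 (without replicate 3), against 46.05. A gene's signal is said to move where it changed by more than 1 SD of its 2 replicate values, so the tolerance differs between genes. Single-replicate signals share no known scale with the pooled ones, and 9 of 10 genes moved without replicate 3 and 9 of 10 without replicate 4. Except at spn-4 in replicate 4, each replicate value was below the pooled one. These moves therefore do not measure how stable a gene's signal is. With a window of 2000 bp upstream the strongest signal moved at 3 of 10 genes, to 83.32 at oma-2, 37.75 at car-1 and 252 at cgh-1. With 500 bp upstream it moved at pie-1, to 9.639. Taking the 4635 strongest pooled regions was chosen after seeing the data and left 4 of 35 genes. The unknown depth sets how weak a region the lists can show.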
